A study of Mus musculus with 6 samples.

Results

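The 52 genes described here drive or mark the cell cycle in mouse liver, and were chosen by name: the Ensembl gene IDs that carry the listed symbols were taken from the deposited tables, and all 52 were found among 56847 gene IDs. They fall into 3 roles. The G1 group of 11 genes holds the D and E cyclins (Ccnd1, Ccnd2, Ccnd3, Ccne1, Ccne2), their kinases (Cdk4, Cdk6, Cdk2) and E2F factors (E2f1, E2f2, E2f8). The replication group of 14 genes holds the MCM helicase subunits (Mcm2 to Mcm7), its loading factors (Cdc6, Cdt1), Pcna, Uhrf1 and enzymes of nucleotide supply (Rrm1, Rrm2, Tyms, Tk1). The mitosis group of 27 genes holds regulators and structural proteins of G2 and M phase. RNA-seq was run on liver of mice fed CDAHFD, a high-fat diet without choline whose protein is replaced by amino acids, used to model steatohepatitis in mice, in 3 libraries, and on liver of mice fed a normal diet, in 3 libraries. The study's title concerns ALDH18A1 in the worsening of steatohepatitis, and its design text asks about lipid metabolism and mitochondrial function. The sources used here do not give the strain, sex or age of the mice or their time on the diet. The labels do not say that the libraries come from separate animals, so the p-values measure only the spread between these samples, which may be technical.

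In G1, D-type cyclins bind CDK4 and CDK6, and these kinases and then cyclin E with CDK2 phosphorylate the RB proteins, which frees E2F factors to switch on genes for DNA synthesis. CDC6 and CDT1 load the MCM2-7 ring, the replicative helicase, onto origins before S phase. Genes for G2 and mitosis are switched on later, by the B-MYB and FOXM1 complexes that act through CHR and CCAAT elements in their promoters. Most hepatocytes of an adult liver rest outside the cycle, and they re-enter it after tissue loss or injury.

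The libraries held 21986215 to 25628531 counts each. Genes counted at least once numbered 20986 to 21761 in the CDAHFD libraries and 19085 to 19454 in the normal diet libraries. Changes were tested on counts with edgeR's quasi-likelihood test after TMM scaling, which sets the typical gene to no change (median log2 fold change over the 14215 tested genes 0.01), with Benjamini-Hochberg adjustment over those genes and a threshold of 0.05. Scaling to total counts raised that median to 0.34, and scaling to 8 hepatocyte marker genes raised it to 0.52, so each log2 fold change below is relative to the typical gene. Levels are given in TPM, the authors' length-scaled abundance, which carries no TMM factor and so places CDAHFD libraries somewhat higher than the fold changes do. In whole liver RNA, more or fewer cells of a type and more or less RNA per cell cannot be told apart.

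Most mitotic genes rose on CDAHFD, and after TMM scaling fewer of the G1 and replication genes did. Of the 52 members, 39 rose, 1 fell (Tk1) and 12 did not pass. Over all tested genes, 52.1% passed, with 28.5% higher and 23.5% lower. The split of all genes moved to 44% higher and 8.07% lower with total counts and to 54.3% higher and 4.23% lower with hepatocyte marker scaling. Higher members numbered 45 with total counts and 48 with hepatocyte marker scaling. In DESeq2 37 members were higher, where 21.5% of all genes were, and in limma on log2(TPM + 1) or log2(TPM + 0.1) 41 were, where 40.4% or 40.2% of all genes were. The limma fits left out Bub1, Cdc6, Cenpe and Cenpf for low mean TPM. By role, 26 of 27 mitosis members rose (96.3%), against 8 of 14 replication members (57.1%) and 5 of 11 G1 members (45.5%). The difference between the roles was not tested, and it depends on the scaling: 27 mitosis, 11 replication and 7 G1 members were higher with total counts, and 27, 12 and 9 with hepatocyte marker scaling. The median log2 fold change was 2.31 for mitosis, 0.49 for replication and 0.29 for G1 members. At least 2-fold higher were 25 mitosis, 6 replication and 2 G1 members, where 18.4% of all tested genes were. At least 4-fold higher were 18, 2 and 1 of them, where 8.29% of all tested genes were.

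All 52 members passed the filter on low counts, yet 18 (16 mitosis genes, Cdc6 and Uhrf1) missed its minimum in at least 1 normal diet library. These passed it with the help of CDAHFD libraries. Those short of it in every normal diet library, such as Plk1 (6, 5 and 8 counts), could hardly have been tested without being higher on CDAHFD. Others were short of it in only some, such as Kif23 (18, 41 and 7 counts). Of the 34 that reached it in every normal diet library, 21 rose and 1 fell. By role, 10 of 11 such mitosis members rose, 6 of 12 such replication members and 5 of 11 such G1 members. Summed over the 52 members, TPM was 395, 340 and 412 in the CDAHFD libraries, against 139, 165 and 154 in the normal diet libraries. Ccnd1 alone made up 32%, 24.1% and 29.4% of that sum on CDAHFD, against 7.61%, 8.47% and 9.59% on normal diet. Without Ccnd1 the sum averaged 272.5 ± 16.7 TPM on CDAHFD and 139.8 ± 11.3 TPM on normal diet (SD, n = 3 each).

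**Figure D1:**
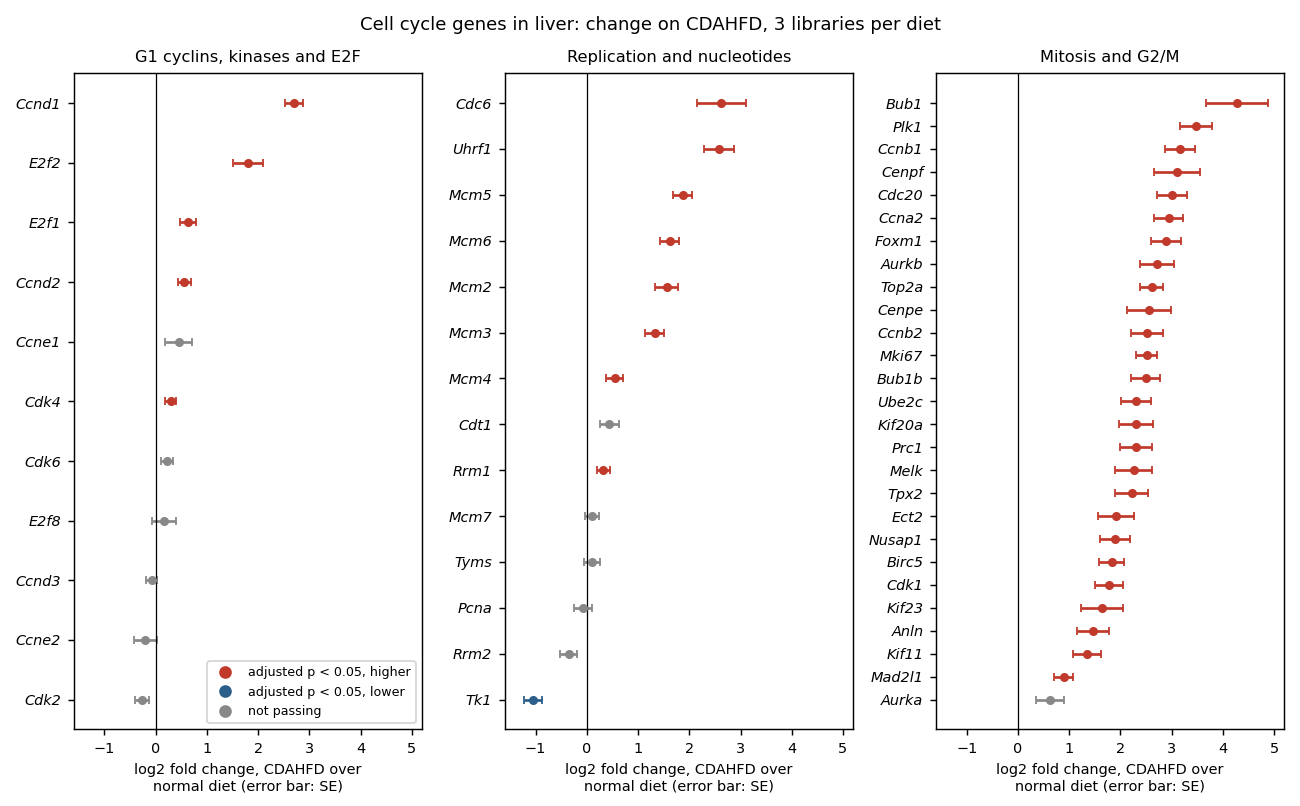
Log2 fold change of each of the 52 members, CDAHFD over normal diet, by role, from edgeR with TMM scaling; points are estimates, bars 1 SE, and colour gives the call at an adjusted p of 0.05. The mitosis members lie from 0.62 to 4.27, whereas the replication members run from −1.06 (Tk1) to 2.63 (Cdc6).

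Cyclin D1 was the G1 gene that changed most. Ccnd1, the D-type cyclin that hepatocytes induce when they enter the cycle, stood at 126, 81.8 and 121 TPM in the CDAHFD libraries, against 10.6, 14.0 and 14.8 TPM in the normal diet libraries. Every CDAHFD library lay far above every normal diet library. The fold change was 6.48 (log2 2.7 ± 0.17, SE, n = 3 each; adjusted p = 3.83e-07). Its exons share 1100 bases (23.4%) with LTO1 on the opposite strand in the GENCODE annotation of GRCm38. LTO1 had 269, 344 and 296 counts on CDAHFD, against 335, 314 and 319 on normal diet.

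The other D cyclins moved less. Ccnd2 had 4.82, 4.69 and 5.23 TPM on CDAHFD, against 2.21, 3.02 and 2.56 TPM on normal diet, and rose by 0.56 ± 0.13 on the log2 scale (SE; adjusted p = 0.00407). Ccnd3 had 12.4, 13.2 and 12.0 TPM on CDAHFD, against 9.47, 11.3 and 10.1 TPM on normal diet, and did not pass (log2 −0.08 ± 0.11; adjusted p = 0.550), with the sign turning to 0.24 with total counts and to 0.42 with hepatocyte marker scaling, where it passed as higher (adjusted p = 0.0222). On normal diet the levels of Ccnd1 and Ccnd3 were near each other, and on CDAHFD Ccnd1 lay far above Ccnd3. The log2 ratio of their TPM averaged 3.11 ± 0.41 on CDAHFD and 0.34 ± 0.19 on normal diet (SD, n = 3 each), a ratio in which the library scaling cancels. This pair was picked after its values were seen.

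The kinase partners of the G1 cyclins changed little after TMM scaling. Cdk4, which pairs with cyclin D, had 38.5, 35.5 and 42.8 TPM on CDAHFD, against 23.7, 24.5 and 25.6 TPM on normal diet, and rose by 0.29 ± 0.10 (log2, SE; adjusted p = 0.0345). That call was lost when any of the CDAHFD libraries 1, 2 and 3 or normal diet libraries 1 and 2 was left out (adjusted p 0.0708 to 0.172) and in DESeq2 (0.0816), and its exons share 641 bases (19.7%) with Tspan31. Cdk6, the other cyclin D kinase, did not pass (8.72, 8.03 and 7.80 TPM on CDAHFD, against 5.03, 6.59 and 4.84 TPM on normal diet; log2 0.22 ± 0.12; adjusted p = 0.141). Cdk2, the cyclin E kinase, had a log2 fold change of −0.28 ± 0.14 (adjusted p = 0.112), which turned to 0.05 with total counts. Without normal diet library 2, Cdk6 passed (adjusted p = 0.0344). It also passed as higher with total counts (0.54, adjusted p = 0.00273) and with hepatocyte marker scaling (0.72, adjusted p = 0.000213). In these scalings Cdk4 stood at 0.62 and 0.80.

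The cyclins E did not pass after TMM scaling. Ccne1 had 5.31, 4.95 and 4.88 TPM on CDAHFD, against 1.95, 2.45 and 4.17 TPM on normal diet (log2 0.45 ± 0.26; adjusted p = 0.172). Its normal diet library 3 lay well above the other two, and without it the log2 fold change was 0.84 (adjusted p = 0.00728). Ccne1 also passed as higher with total counts (0.77, adjusted p = 0.025) and with hepatocyte marker scaling (0.94, adjusted p = 0.00245). Ccne2 had a log2 fold change of −0.20 ± 0.23 (adjusted p = 0.486), which turned to 0.12 with total counts.

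The activator E2F genes among the members, E2f1 and E2f2, rose. E2f8, an atypical E2F that represses E2F targets, did not pass after TMM scaling, and the difference was not tested. E2f2 had 1.57, 1.24 and 2.10 TPM on CDAHFD, against 0.426, 0.308 and 0.338 TPM on normal diet (log2 1.80 ± 0.30; adjusted p = 0.00043). E2f1 had 6.18, 5.82 and 6.53 TPM on CDAHFD, against 3.19, 3.18 and 2.92 TPM on normal diet (log2 0.63 ± 0.16; adjusted p = 0.00634). For both genes the diets did not overlap. E2f8 varied within CDAHFD, with 6.93 TPM in library 1 and 4.35 and 3.62 TPM in libraries 2 and 3, against 2.80, 3.68 and 3.84 TPM on normal diet. Its log2 fold change was 0.16 ± 0.23 (adjusted p = 0.578), and −0.17 without CDAHFD library 1. With hepatocyte marker scaling E2f8 passed as higher (0.65, adjusted p = 0.0103).

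**Figure D2:**
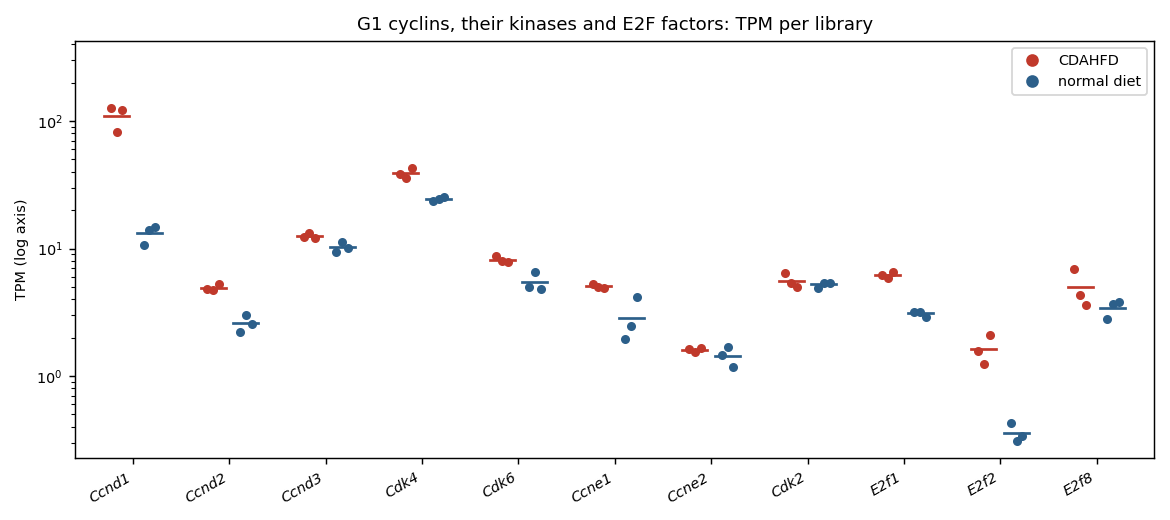
TPM of the 11 G1 members in each library on a log axis, CDAHFD left of normal diet; points are libraries and lines group means. Ccnd1 is the member with the widest gap, 81.8 to 126 TPM on CDAHFD against 10.6 to 14.8 TPM on normal diet.

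Within replication, Mcm2, Mcm3, Mcm4, Mcm5, Mcm6, Cdc6, Uhrf1 and Rrm1 rose, Tk1 fell, and Mcm7, Cdt1, Pcna, Rrm2 and Tyms did not pass. Promoters of 3 MCM genes are printed first, because Mcm5 and Mcm6 rose and Mcm7 did not pass although all 3 hold matches to E2F letters. Each is the RefSeq window of 250 bases before to 50 bases after a gene start, in GRCm38.p6, 5′ to 3′ on the gene's strand. Capitals mark matches to the E2F spellings TTTCCCGC, TTTCGCGC, TTTGCCGC or TTTGGCGC or their reverse complements. Mcm5 lies at chr8:75109259-75109558 (plus strand), Mcm6 at chr1:128359656-128359955 (minus strand) and Mcm7 at chr5:138171834-138172133 (minus strand, the first of 2 windows in the table).
Mcm5: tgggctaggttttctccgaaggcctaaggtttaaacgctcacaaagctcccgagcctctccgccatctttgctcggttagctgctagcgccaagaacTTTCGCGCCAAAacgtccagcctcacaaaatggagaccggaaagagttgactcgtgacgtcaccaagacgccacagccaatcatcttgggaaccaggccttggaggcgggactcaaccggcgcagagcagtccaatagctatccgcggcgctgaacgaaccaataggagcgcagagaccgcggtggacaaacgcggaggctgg
Mcm6: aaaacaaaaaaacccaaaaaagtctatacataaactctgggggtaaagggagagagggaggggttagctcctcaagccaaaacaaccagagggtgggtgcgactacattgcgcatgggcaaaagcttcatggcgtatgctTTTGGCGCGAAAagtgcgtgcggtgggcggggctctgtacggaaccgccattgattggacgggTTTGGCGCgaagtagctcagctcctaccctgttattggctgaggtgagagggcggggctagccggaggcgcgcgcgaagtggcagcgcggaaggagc
Mcm7: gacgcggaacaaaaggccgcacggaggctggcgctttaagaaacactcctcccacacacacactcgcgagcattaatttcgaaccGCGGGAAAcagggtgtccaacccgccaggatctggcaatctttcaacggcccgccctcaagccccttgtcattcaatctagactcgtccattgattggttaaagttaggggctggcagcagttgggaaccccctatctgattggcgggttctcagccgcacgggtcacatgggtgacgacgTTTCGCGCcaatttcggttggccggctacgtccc

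The capitals in Mcm5 and the first run in Mcm6 are each 2 overlapping E2F matches on opposite strands, and the second E2F match of Mcm7 overlaps a CCAAT. A match describes letters and is not shown to be a bound site.

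Of the MCM subunits, Mcm2, Mcm3, Mcm4, Mcm5 and Mcm6 rose and Mcm7 did not pass. Mcm5 had 8.26, 7.52 and 8.0 TPM on CDAHFD, against 1.36, 1.63 and 2.04 TPM on normal diet (log2 1.87 ± 0.18, SE, n = 3 each; adjusted p = 8.05e-06). Mcm6 had 10.2, 9.10 and 14.0 TPM on CDAHFD, against 2.28, 2.96 and 3.16 TPM on normal diet (log2 1.62 ± 0.18; adjusted p = 2.56e-05). Neither gene's diets overlapped. Mcm2 rose by 1.56 ± 0.22 on the log2 scale (5.05, 4.02 and 6.55 TPM on CDAHFD, against 0.997, 1.42 and 1.68 TPM on normal diet), and Mcm3 by 1.33 ± 0.18 (8.86, 10.4 and 12.4 TPM on CDAHFD, against 2.65, 3.21 and 3.93 TPM on normal diet). Mcm4 rose less, by 0.54 ± 0.17 (7.03, 6.44 and 7.65 TPM on CDAHFD, against 3.03, 4.71 and 3.55 TPM on normal diet; adjusted p = 0.0186). The Mcm4 call was lost without CDAHFD library 1 (adjusted p = 0.0571), without CDAHFD library 3 (0.0657) and without normal diet library 1 (0.0805).

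Mcm7 had 10.2, 9.74 and 12.9 TPM on CDAHFD, against 7.55, 8.13 and 8.02 TPM on normal diet (log2 0.10 ± 0.13; adjusted p = 0.531). Its levels on normal diet were the highest of the MCM genes, and it passed with total counts (log2 0.43, adjusted p = 0.0212) and stood at −0.04 without CDAHFD library 3. Because MCM proteins work as a ring of 1 copy each, the spread of their RNA levels was described too. The highest MCM TPM was 2.03, 2.58 and 2.14 times the lowest in the CDAHFD libraries, against 7.57, 5.71 and 4.78 times in the normal diet libraries. The 6 RNAs thus lay closer together in every CDAHFD library than in any normal diet library. This rests on Mcm7, the highest in each normal diet library. Without Mcm7 the spreads overlapped. Mcm3 and Mcm2, then highest and lowest, had 10.4 and 4.02 TPM in CDAHFD library 2, against 3.93 and 1.68 TPM in normal diet library 3. Mcm7 shares 321 exon bases (7.25%) with Ap4m1 and 64 (1.45%) with Cops6 on the opposite strand. The part of their reads in the Mcm7 counts was not tested. The log2 ratio of Mcm6 to Mcm7 TPM averaged 0.0066 ± 0.11 on CDAHFD and −1.51 ± 0.20 on normal diet (SD, n = 3 each), and that of Mcm4 to Mcm7 averaged −0.63 ± 0.11 on CDAHFD and −1.09 ± 0.28 on normal diet. These pairs were picked after their values were seen.

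Of the MCM loaders, Cdc6 passed and Cdt1 did not, a difference that was not tested. Cdc6 was short of the count minimum in every normal diet library and could hardly have been tested without being higher on CDAHFD. Cdc6 had 34, 38 and 18 counts on CDAHFD, against 2, 3 and 6 counts on normal diet, and rose by 2.63 ± 0.48 on the log2 scale (adjusted p = 0.000874). Cdt1, which is limited mainly through breakdown of its protein, had 10.3, 6.57 and 9.62 TPM on CDAHFD, against 5.15, 4.51 and 5.37 TPM on normal diet, and did not pass (log2 0.44 ± 0.19; adjusted p = 0.0681). Cdt1 passed as higher without CDAHFD library 2 (0.56; adjusted p = 0.0269), with total counts (0.76; adjusted p = 0.00453), with hepatocyte marker scaling (0.95; adjusted p = 0.000204), without the low count filter (adjusted p = 0.0461) and in limma on TPM, so its call turns on these choices. Uhrf1, which reads hemimethylated DNA behind the fork, had 3.29, 3.37 and 3.78 TPM on CDAHFD, against 0.244, 0.441 and 0.665 TPM on normal diet (log2 2.58 ± 0.29; adjusted p = 2.71e-05). Every CDAHFD library lay above every normal diet library for Uhrf1.

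Pcna, the sliding clamp of the fork and a common marker of dividing liver cells, did not pass. It had 13.7, 18.4 and 20.1 TPM on CDAHFD, against 14.4, 17.1 and 11.4 TPM on normal diet (log2 −0.07 ± 0.17; adjusted p = 0.742). The diets overlapped, and the sign turned to 0.25 with total counts, to 0.44 with hepatocyte marker scaling, where it passed as higher (adjusted p = 0.0437), to 0.04 without CDAHFD library 1 and to 0.02 without normal diet library 2.

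Of the nucleotide supply genes, 1 fell and 1 rose. Tk1, the thymidine salvage kinase, had 5.86, 9.29 and 6.39 TPM on CDAHFD, against 10.4, 12.9 and 11.8 TPM on normal diet, with 239, 447 and 266 counts on CDAHFD against 467, 537 and 518 counts on normal diet. It fell by 1.06 ± 0.18 on the log2 scale (SE, n = 3 each; adjusted p = 0.000484), and every CDAHFD library lay below every normal diet library. Tk1 shares 83 exon bases (1.6%) with Afmid on the opposite strand, and Afmid had 126, 269 and 143 counts on CDAHFD, against 642, 659 and 426 on normal diet. The sources used here do not say whether reads were counted by strand, and the part of Afmid reads in the Tk1 counts was not tested.

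Ribonucleotide reductase makes deoxynucleotides, and its members here are Rrm1 and Rrm2. Rrm1, the large subunit, had 4.96, 4.39 and 5.52 TPM on CDAHFD, against 2.76, 3.40 and 3.07 TPM on normal diet (log2 0.32 ± 0.12; adjusted p = 0.0464). The Rrm1 call was lost without any 1 of the 6 libraries (adjusted p 0.0535 to 0.188) and in DESeq2 (0.113). Rrm2, the small subunit that is made in S phase, had 8.74, 11.3 and 9.14 TPM on CDAHFD, against 8.34, 9.41 and 11.4 TPM on normal diet, and did not pass (log2 −0.36 ± 0.17; adjusted p = 0.102). Without CDAHFD library 2 it passed as lower (−0.55; adjusted p = 0.0298), and with hepatocyte marker scaling the sign turned to 0.13. Tyms, which makes thymidylate, had a log2 fold change of 0.10 ± 0.15 (adjusted p = 0.610), and passed as higher with total counts (0.42; adjusted p = 0.0391) and with hepatocyte marker scaling (0.61; adjusted p = 0.0114).

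**Figure D3:**
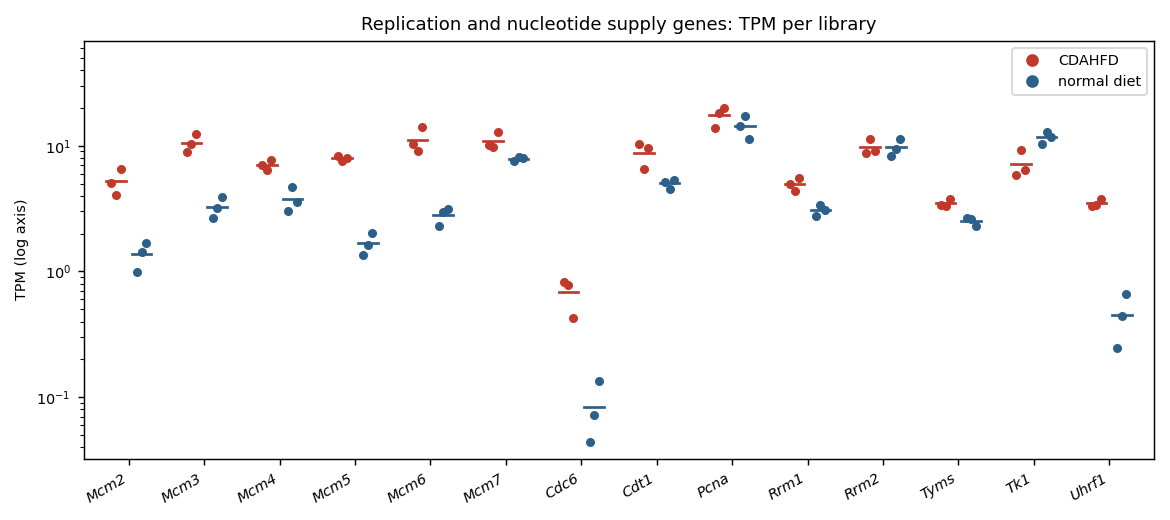
TPM of the 14 replication members in each library on a log axis, CDAHFD left of normal diet; points are libraries and lines group means. Mcm5 and Uhrf1 separate widely, Pcna overlaps, and Tk1 is the member whose CDAHFD libraries (5.86 to 9.29 TPM) all lie under the normal diet libraries (10.4 to 12.9 TPM).

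All 27 mitosis members were at low levels on normal diet and every CDAHFD library lay above every normal diet library for each of them, in TMM-scaled counts. For 16 of them, which did not reach the count minimum in every normal diet library, this was partly built in, most so for the scarcest. It held for the other 11 too. Over all tested genes, 32.2% had every CDAHFD library above and 28.4% every one below. Mean TPM per gene ran from 0.349 to 7.65 on CDAHFD and from 0.0282 to 2.10 on normal diet. Summed over the 27 genes, TPM was 75.1, 69.1 and 79.0 in the CDAHFD libraries, against 11.7, 16.7 and 10.1 in the normal diet libraries, a ratio of 5.81. Promoters of 3 of these genes are printed here because they carry both letter groups known from mitotic promoters, CHR (TTTGAA) and CCAAT, shown in capitals on either strand. They are RefSeq windows of GRCm38.p6 as above, at chr7:135716330-135716629 (minus strand) for Mki67, chr4:118437294-118437593 (minus strand) for Cdc20 and chr9:70421505-70421804 (minus strand) for Ccnb2.
Mki67: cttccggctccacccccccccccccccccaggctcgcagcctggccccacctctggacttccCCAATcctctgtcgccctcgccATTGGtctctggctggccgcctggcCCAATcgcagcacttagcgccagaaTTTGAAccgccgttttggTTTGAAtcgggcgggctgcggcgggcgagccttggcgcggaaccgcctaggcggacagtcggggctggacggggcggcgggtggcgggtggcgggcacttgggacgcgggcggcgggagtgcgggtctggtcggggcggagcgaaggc
Cdc20: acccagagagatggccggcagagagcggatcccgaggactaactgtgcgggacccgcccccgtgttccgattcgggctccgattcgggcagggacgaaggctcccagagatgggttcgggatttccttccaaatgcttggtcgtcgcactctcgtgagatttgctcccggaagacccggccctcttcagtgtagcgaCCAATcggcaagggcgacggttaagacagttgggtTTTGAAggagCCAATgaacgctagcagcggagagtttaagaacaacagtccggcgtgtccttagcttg
Ccnb2: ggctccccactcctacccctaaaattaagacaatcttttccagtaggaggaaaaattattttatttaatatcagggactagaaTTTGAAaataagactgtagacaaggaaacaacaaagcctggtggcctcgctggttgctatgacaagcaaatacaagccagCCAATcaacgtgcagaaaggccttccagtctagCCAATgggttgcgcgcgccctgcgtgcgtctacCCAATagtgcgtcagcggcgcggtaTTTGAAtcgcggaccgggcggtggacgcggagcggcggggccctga

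In Mki67 the CHR letters begin 116 and 98 bases before the start. In Cdc20 they begin 18 bases before it, with CCAAT on either side. In Ccnb2 they begin 167 bases before and 4 bases after it, with a run of CCAAT between.

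Among the cyclins and kinases that open mitosis, Ccnb1, Ccnb2, Ccna2, Cdk1, Plk1, Aurkb and Melk rose. Plk1, the polo-like kinase of mitotic entry, had 5.10, 3.98 and 6.07 TPM on CDAHFD, against 0.315, 0.285 and 0.429 TPM on normal diet (fold 11.1, log2 3.48 ± 0.31, SE, n = 3 each; adjusted p = 4.34e-06). Ccnb1, a cyclin partner of Cdk1, had 2.02, 2.02 and 2.60 TPM on CDAHFD, against 0.164, 0.178 and 0.224 TPM on normal diet (log2 3.16 ± 0.30; adjusted p = 6.74e-06). Both estimates were larger than that of Cdk1 itself, a difference that was not tested. Cdk1 had 2.58, 2.69 and 3.49 TPM on CDAHFD, against 0.679, 0.940 and 0.383 TPM on normal diet (log2 1.77 ± 0.27; adjusted p = 0.000274). Ccna2, the cyclin of S and G2 phase, rose by 2.94 ± 0.29, and Ccnb2 by 2.52 ± 0.31, with 7.57, 8.18 and 6.85 TPM on CDAHFD, against 1.51, 0.901 and 0.616 TPM on normal diet. Foxm1, the transcription factor of the G2 and M programme, had 2.04, 1.76 and 1.82 TPM on CDAHFD, against 0.261, 0.196 and 0.123 TPM on normal diet (log2 2.89 ± 0.29; adjusted p = 1.14e-05). The diets did not overlap in any of these genes, where 32.2% of all tested genes had every CDAHFD library above. Of these genes only Cdk1 reached the count minimum in every normal diet library. For the others the rise and the lack of overlap were partly built in, most so for the scarcest.

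Of the Aurora kinases 1 passed, and the difference between them was not tested. Aurkb, the kinase of the chromosomal passenger complex, had 2.34, 2.42 and 2.88 TPM on CDAHFD, against 0.235, 0.468 and 0.200 TPM on normal diet (log2 2.71 ± 0.33; adjusted p = 4.98e-05). Aurka, the spindle pole kinase, had 4.13, 4.10 and 4.14 TPM on CDAHFD, against 1.64, 3.27 and 1.40 TPM on normal diet, and was the mitosis member that did not pass (log2 0.62 ± 0.27; adjusted p = 0.076). The CDAHFD libraries were nearly equal and normal diet library 2 was high; without that library Aurka passed (1.02; adjusted p = 0.0054). Birc5 (survivin), which works in the same complex as Aurkb, had 3.15, 2.73 and 3.52 TPM on CDAHFD, against 0.781, 0.700 and 0.555 TPM on normal diet (log2 1.83 ± 0.24).

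The members that serve the spindle checkpoint and the anaphase-promoting complex are Bub1, Bub1b, Mad2l1, Cdc20 and Ube2c, and these rose. Bub1, a checkpoint kinase, had 34, 24 and 24 counts on CDAHFD, against 0, 2 and 1 counts on normal diet. The 82 counts on CDAHFD against 3 on normal diet give a ratio of 21.2 after scaling for library size, with a 95% exact interval of 7.01 to 105 that covers counting error only (log2 4.27 ± 0.60; adjusted p = 0.00014). Bub1b, which encodes the checkpoint protein BUBR1, had 2.53, 3.03 and 3.39 TPM on CDAHFD, against 0.270, 0.586 and 0.386 TPM on normal diet (log2 2.49 ± 0.28). Mad2l1, another checkpoint protein, had the smallest change that passed among the mitosis members, 0.89 ± 0.19 (adjusted p = 0.00207), with 2.05, 2.32 and 2.20 TPM on CDAHFD, against 0.758, 1.15 and 0.858 TPM on normal diet. Bub3, a checkpoint gene outside the members that was looked up after its value was seen, did not pass (log2 0.06, adjusted p = 0.705). Cdc20, the activator that the checkpoint holds back, had 7.71, 5.55 and 9.69 TPM on CDAHFD, against 0.557, 0.939 and 0.695 TPM on normal diet (fold 8.06, log2 3.01 ± 0.29; adjusted p = 8.25e-06). Ube2c, the ubiquitin-conjugating enzyme of that complex, had 7.20, 4.28 and 4.51 TPM on CDAHFD, against 0.578, 0.916 and 0.998 TPM on normal diet (log2 2.31 ± 0.29).

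The chromosome and kinetochore members Mki67, Top2a, Cenpe and Cenpf rose. Mki67, whose protein Ki-67 coats mitotic chromosomes and marks cycling cells, had 4.65, 4.56 and 3.63 TPM on CDAHFD, against 0.563, 0.772 and 0.422 TPM on normal diet (fold 5.71, log2 2.51 ± 0.21; adjusted p = 2.48e-06). Top2a, which untangles sister chromatids, had 2.67, 3.01 and 3.32 TPM on CDAHFD, against 0.257, 0.473 and 0.419 TPM on normal diet (log2 2.61 ± 0.22; adjusted p = 2.87e-06). Neither gene's diets overlapped. The kinetochore genes Cenpf and Cenpe were scarcer, at most 0.483 and 0.990 TPM in any CDAHFD library and at most 0.0487 and 0.145 TPM in any normal diet library. They rose by 3.11 ± 0.45 and 2.56 ± 0.42 on the log2 scale.

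The spindle and cytokinesis members Kif11, Kif20a, Kif23, Tpx2, Nusap1, Ect2, Anln and Prc1 rose by 1.35 to 2.30 on the log2 scale. The largest change among them was in Kif20a, a kinesin of the midzone, with 2.00, 1.87 and 3.22 TPM on CDAHFD, against 0.480, 0.260 and 0.354 TPM on normal diet (2.30 ± 0.32), and in Prc1, the midzone bundler (2.30 ± 0.31). Kif20a shares 1271 exon bases (29.3%) with Cdc23, which had 254, 295 and 317 counts on CDAHFD, against 239, 249 and 218 on normal diet. Prc1 shares 911 exon bases (11.1%) with Rccd1 on the opposite strand. Rccd1 had 41, 63 and 39 counts on CDAHFD, against 17, 27 and 13 on normal diet. Prc1 itself had 67, 69 and 68 counts on CDAHFD, against 9, 16 and 7 on normal diet. The part of partner reads in the Kif20a and Prc1 counts was not tested. Tpx2, a spindle assembly factor, rose by 2.22 ± 0.32, Ect2, the exchange factor that starts furrowing, by 1.91 ± 0.35, and Nusap1, a microtubule binder, by 1.89 ± 0.30. Melk, a kinase of cycling cells, rose by 2.26 ± 0.36, and Anln (anillin) by 1.46 ± 0.30. Kif11, the motor that separates spindle poles, had the smallest change here, 1.35 ± 0.27. Kif23, a motor of the central spindle, had 76, 104 and 87 counts on CDAHFD, against 18, 41 and 7 on normal diet (1.64 ± 0.41; adjusted p = 0.00585). Normal diet library 2 was high for Kif23 and for several other mitosis genes, and without it the log2 fold change of Kif23 was 2.44 and that of Bub1 5.13.

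**Figure D4:**
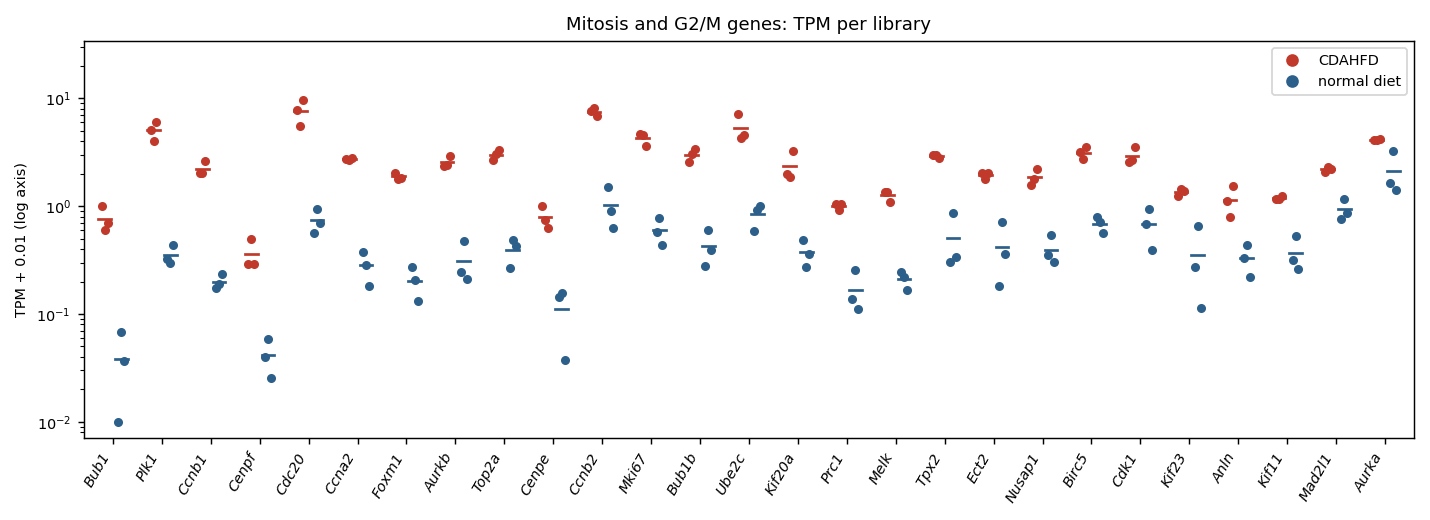
TPM plus 0.01 of the 27 mitosis members in each library on a log axis, CDAHFD left of normal diet, ordered by fold change; points are libraries and lines group means. CDAHFD libraries lie above normal diet libraries for every gene, with the smallest gap in Aurka (4.10 to 4.14 TPM on CDAHFD against 1.40 to 3.27 TPM on normal diet).

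The promoters of the roles differ in the letters they carry, a property not used in choosing the genes by name. RefSeq windows were found for 43 of the 52 members, and not matched were Aurkb, Ccna2, Ccnd1, Ccnd2, Ccne2, Foxm1, Kif20a, Mcm4 and Tpx2. CHR letters (TTTGAA) were in 15 of 22 mitosis members, 1 of 13 replication members and 2 of 8 G1 members, against 20.2% of all 27025 genes with a window. CCAAT was in 17 of the 22 mitosis members, 9 of the 13 replication members and 4 of the 8 G1 members, against 41.1% of all genes. Both together were in 14 of the 22 mitosis members (63.6%), against 8.97% of all genes. The mitosis promoters were the ones rich in CHR. E2F letters were in 1 mitosis member, 7 replication members (53.8%) and 2 G1 members, against 2.6% of all genes, and 4 of the 5 MCM genes with a window held them. Among the 17492 protein-coding genes with a window the shares were 18.5% for CHR, 42.3% for CCAAT, 8.37% for both and 3.29% for E2F. Of the 21 distinct CHR matches in the mitosis promoters, 15 lay within 50 bases of the start, where a match in overlapping windows of a gene counts once, at the nearer start. Both strands were searched, genes with several windows count once if any window matched, and the matches describe these letters in these windows and no more.

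**Figure D5:**
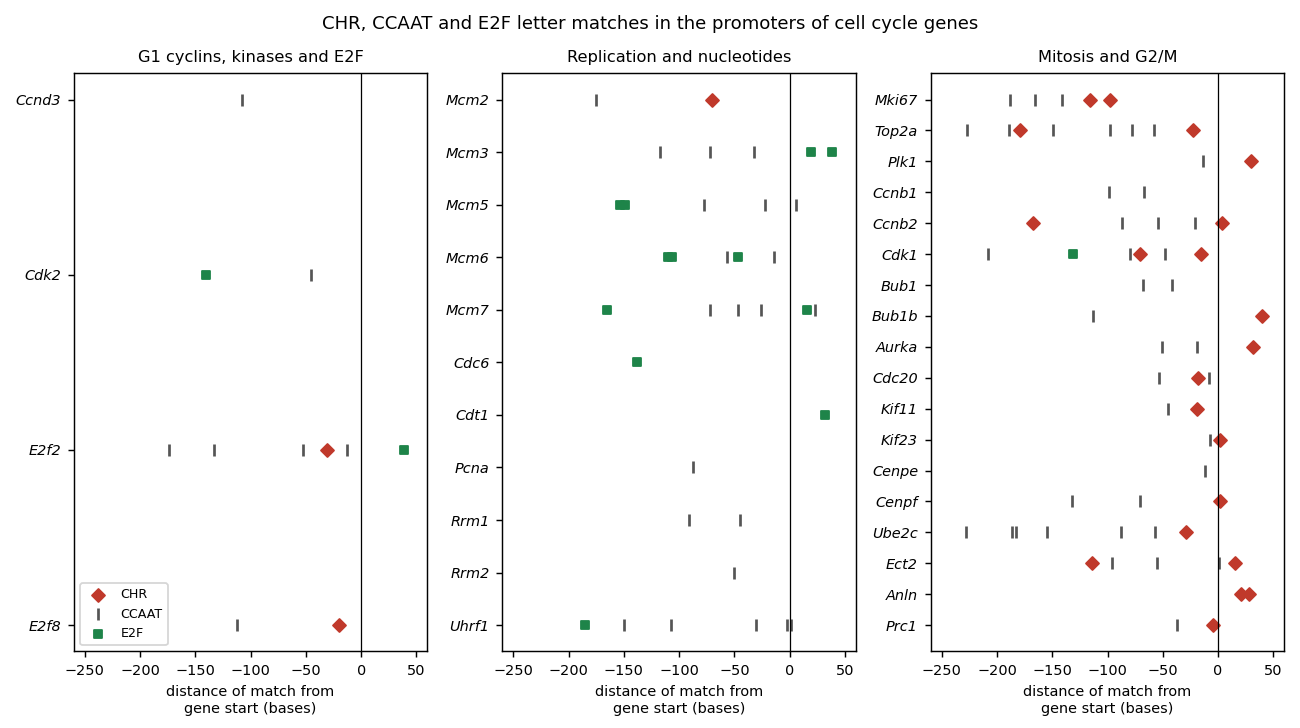
Position of CHR, CCAAT and E2F letter matches in the promoters of members with at least 1 match, in bases from the gene start, with the windows of a gene overlaid and a match in overlapping windows drawn once; members with a window but no match are left out. CHR matches (diamonds) gather near the start in mitosis genes, 15 of 21 within 50 bases, and E2F matches (squares) lie mostly in replication genes.

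Further genes of the same pathways, listed by function, were counted in the same way. Of 38 other replication genes, 35 were tested: 11 rose, 7 fell and 17 did not pass, with a median log2 fold change of 0.03. Gins2, a part of the active helicase, rose by 2.47 ± 0.37 (1.80, 1.61 and 1.65 TPM on CDAHFD, against 0.0846, 0.367 and 0.259 TPM on normal diet). Lig1, the ligase of Okazaki fragments, rose by 1.24 ± 0.17, the chromatin assembly gene Chaf1a by 1.09 ± 0.22 and the remodeller gene Hells by 1.15 ± 0.38. The share of these genes that rose was near the background of 28.5%. Of 40 other mitosis genes, 37 were tested: 26 rose, 2 fell and 9 did not pass, with a median of 1.68. Some had few counts on normal diet, such as Espl1 (6, 3 and 4) and Ckap2l (6, 9 and 9). Genes this scarce there could hardly have been tested without being higher on CDAHFD, and their number was not determined. Espl1 (separase) rose by 3.22 ± 0.35, Racgap1, a partner of Kif23, by 3.02 ± 0.28, Ckap2l by 2.90 ± 0.31 and Cdca3 by 2.11 ± 0.20. Cdca3 had 6.00, 5.35 and 5.66 TPM on CDAHFD, against 0.968, 1.18 and 0.906 TPM on normal diet.

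Brakes of the cycle moved in both directions after TMM scaling. Of 23 genes for CDK inhibitors, RB proteins, repressor E2F complexes and related brakes, 21 were tested: 9 rose, 4 fell and 8 did not pass, with a median log2 fold change of 0.25. The 13 of 21 that passed lie near the 52.1% of all tested genes, of which 28.5% rose and 23.5% fell. The 4 falls were small (log2 −0.40 to −0.59) and were not checked under other scalings. Hepatocyte marker scaling raised the median of all genes to 0.52. Cdkn1a, which encodes the CDK inhibitor p21, had 30.9, 22.1 and 27.9 TPM on CDAHFD, against 2.67, 3.60 and 1.73 TPM on normal diet (log2 2.98 ± 0.21; adjusted p = 7.57e-07). It changed by about as much as Ccnd1, and the diets did not overlap. Btg2, an antiproliferative gene, rose by 1.82 ± 0.21, with 48.1, 37.8 and 44.7 TPM on CDAHFD, against 11.5, 6.26 and 10.6 TPM on normal diet. Rbl1 (p107) rose by 1.79 ± 0.20 and Cdkn2c, an inhibitor of CDK4 and CDK6, by 1.39 ± 0.16.

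Markers of liver cell types were counted beside these genes, where 28.5% of all tested genes rose and 23.5% fell. Of the 8 hepatocyte markers 7 fell (Alb by 0.47 ± 0.15), and their summed TPM was 126200 to 137200 on CDAHFD against 137400 to 153500 on normal diet. Of the 8 macrophage markers 6 rose, with sums of 2032 to 2242 TPM on CDAHFD against 283 to 351 TPM on normal diet. All 7 stellate cell and myofibroblast markers rose, with sums of 500 to 608 TPM on CDAHFD against 89.3 to 109 TPM on normal diet. Neither sum overlapped between the diets. Of 8 T and NK cell markers 7 rose (25.6 to 37.7 TPM on CDAHFD against 5.46 to 6.70 TPM on normal diet), and all 3 tested neutrophil markers of 6 rose (41.2 to 73.0 TPM on CDAHFD against 3.69 to 3.97 TPM on normal diet, where Mpo was at 0 in every library). Some of these markers were under the count minimum on normal diet, such as Cd8a (4, 7 and 8 counts) and S100a9 (7, 4 and 5). Such markers could hardly have been tested without being higher on CDAHFD. The TPM sums do not depend on that filter. All 5 tested cholangiocyte markers of 6 rose (283 to 369 TPM on CDAHFD against 38.4 to 42.4 TPM on normal diet). Most of that sum was Spp1, with 260 to 337 TPM on CDAHFD against 34.8 to 36.7 TPM on normal diet. Of 5 tested B and plasma cell markers of 6, 3 rose (20.9 to 31.6 TPM on CDAHFD against 8.69 to 9.09 TPM on normal diet). Immune and stromal marker lists thus rose with the mitotic genes. Of 6 endothelial markers 1 rose (192 to 217 TPM on CDAHFD against 134 to 158 TPM on normal diet), and of 6 erythroblast markers 2 fell (853 to 1667 TPM on CDAHFD against 732 to 1239 TPM on normal diet), shares near those of all genes. Which cells carried the cell cycle RNAs, and the part of each of these cell types in the changes, was not tested.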

How the data were processed

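Whole liver RNA of 3 CDAHFD and 3 normal diet samples was extracted with TRIzol, and 1 µg of total RNA went into a stranded, ligation-based mRNA kit, per the labels' protocols. Reads were aligned with STAR 2.7.11a, and the build named is GRCm39, per the submitters' processing notes. The sources used here do not give the counting tool, annotation, strand setting or gene lengths. The authors deposited raw counts per Ensembl gene as whole numbers, and the authors also deposited TPM, which is scaled by gene length and library total. Columns starting CD were read as CDAHFD and ND as normal diet, with the replicate numbers of the sample titles, and 0 other sample columns were left unused. Symbols came from a gene name table (51911 of 56847 IDs matched).

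Counts were filtered with filterByExpr (minimum count 10, about 0.444 CPM), which kept 14215 of 26131 counted genes, and tested with edgeR 4.0.16 (quasi-likelihood test, TMM factors 1.09 to 1.14 on CDAHFD and 0.877 to 0.907 on normal diet, all 6 libraries, 2-sided) in R 4.3.3. P-values were adjusted by Benjamini-Hochberg over all tested genes. The biological coefficient of variation was 0.136. No 2 libraries of a diet agreed within sampling noise (chi-square per degree of freedom 19.1 to 43.4). Tested on simulated data, known 2-fold changes were found in 77 of 100 genes and 1.5-fold changes in 34 of 100, and 12 of its 123 calls were false. Only these genes were changed among 14215 drawn, a far smaller share than the 52.1% that passed here. The found and false shares need not hold for the real comparison. Alternatives were RLE and total count scaling, scaling to 8 hepatocyte markers, other filters, DESeq2 1.42.0, limma 3.58.1 on log2(TPM + 1) and log2(TPM + 0.1), a replicate block and leaving out each library.

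The members and lists were chosen with earlier results of these data known. All members may be named; of other pathway lists, up to 4 passing genes that changed most and have a mean CPM of 1 or more are named, and of marker lists up to 2 of the highest mean CPM. Sequences came from the RefSeq promoter table of GRCm38.p6 and exon overlaps from GENCODE on GRCm38, another build than that of the counts, whose coordinates were not converted.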

Additional observations from a re-analysis of the deposited data

How the results depend on the processing

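Of 39 members that rose, 36 passed as higher in every alternative in which they were tested; Rrm1, Cdk4 and Mcm4 did not. Tk1 stayed lower in each. Each of the 12 not passing changed its call or sign in some alternative, and Tyms, Cdk6, Ccne1, Cdt1, Mcm7 and Aurka were higher with total counts, with hepatocyte marker scaling and in both limma fits. Medians (all, G1, replication, mitosis members) were 2.11, 0.62, 0.81 and 2.63 with total counts, 2.31, 0.80, 1.00 and 2.83 with hepatocyte marker scaling (9 G1 members higher), 0.93, 0.64, 0.69 and 1.29 on log2(TPM + 1), and 0.66 (G1) and 0.78 (replication) on log2(TPM + 0.1). Some signs turned positive: with total counts Ccnd3 0.24, Ccne2 0.12, Cdk2 0.0465 and Pcna 0.25; with hepatocyte marker scaling Ccnd3 0.42, Ccne2 0.31, Cdk2 0.22, Pcna 0.44 and Rrm2 0.13; on log2(TPM + 1) Ccnd3 0.26, Ccne2 0.10, Cdk2 0.0702, Pcna 0.27 and Rrm2 0.0048; on log2(TPM + 0.1) Ccnd3 0.28, Ccne2 0.16, Cdk2 0.0808, Pcna 0.28 and Rrm2 0.0055. These scalings moved all genes upward (median 0.34, 0.52, 0.29 and 0.36). With a library left out, members lower numbered 1 to 2 (replication 1 to 2), the replication median ran from 0.41 to 0.55 and the mitosis median from 2.27 to 2.69, E2f8 from −0.17 to 0.32, Pcna from −0.21 to 0.0413 and Mcm7 from −0.0435 to 0.12. Rrm2 was the added lower call. Same-numbered libraries had correlations of −0.05, 0.07 and 0.13, so the numbers were not taken as pairs, and not every library correlated best with its own number; with a replicate block 39 members were higher (median 1.79). Genes with under about 10 counts on normal diet, such as Bub1 and Cdc6, are limited by depth. The causes of these changes were not tested.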

Other observations

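A few cell cycle genes outside the 52 stood apart and were chosen after their values were seen. Mcm10, a replication factor that acts with the MCM ring, had 24.3, 27.8 and 22.1 TPM on CDAHFD, against 38.1, 42.7 and 40.6 TPM on normal diet, and fell by 1.07 ± 0.12 on the log2 scale (SE, n = 3 each; edgeR, adjusted p = 2.55e-05). It thus moved opposite to Mcm2, Mcm3, Mcm5 and Mcm6 and stood above each of them in TPM on both diets. Pttg1 (securin), the inhibitor of separase, had 8.66, 9.29 and 9.55 TPM on CDAHFD, against 15.9, 3.89 and 4.01 TPM on normal diet, where library 1 lay above every CDAHFD library. It did not pass (log2 −0.18 ± 0.45; adjusted p = 0.761). Among the brakes, Rbl2 (p130), the RB protein of resting cells, fell by 0.59 ± 0.10 (adjusted p = 0.000623), while its relative Rbl1 rose. The falls of Mcm10 and Rbl2 were not checked under other scalings. Hepatocyte marker scaling raised the median of all genes to 0.52, near the size of the Rbl2 fall.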
